A study of Mus musculus with 12 samples.

Results

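A set of 8 genes was followed across the neocortex libraries of a Chd8 heterozygous mouse line, namely the transcription factors Cux1, Cux2, Pou3f2, Pou3f3, Rorb, Lhx2, Mef2c and Bhlhe22, all used as regulators or markers of upper-layer cortical neurons. They were taken by symbol, and all 8 were found among the 46603 gene identifiers of the count tables. RNA from dissected neocortex was sequenced at embryonic day 12.5 (E12.5) and postnatal day 5 (P5), with 3 Chd8+/+ and 3 Chd8+/- libraries at each stage, 12 in all. The mice were C57Bl/6J. Chd8+/- mice carried 1 allele in which Cre had deleted exon 3 of Chd8, a gene for a chromatin remodeller linked to autism, in every tissue, and Chd8+/+ controls carried none. Tissue at E12.5 came from both hemispheres and tissue at P5 from one. By their column headers the stages were also sequenced in different runs, and they were counted in separate count tables. Stage, dissection, sequencing run and counting thus changed together and cannot be told apart. The sources used here do not say whether replicates shared a litter, and p-values measure the spread between these libraries.

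The excitatory neurons of the neocortex are born in sequence, deep layers first and upper layers later, from progenitors that line the ventricle. Cux1 and Cux2 are CUT homeodomain factors of upper-layer neurons, and Pou3f2 and Pou3f3 (Brn2 and Brn1) are POU factors that act together in the production and migration of these cells. Lhx2 is a LIM homeodomain factor that progenitors also use to specify cortex, Rorb is a nuclear receptor of layer 4, Mef2c is a MADS-box factor of maturing neurons that is also made by microglia and endothelium, and Bhlhe22 is a basic helix-loop-helix factor of postmitotic neurons and area identity. In bulk tissue, fewer cells of a type and less RNA per cell cannot be told apart.

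Libraries held between 38774591 and 54695236 counts. Values are given as counts relative to library size (CPM) after scaling by the trimmed mean of M-values (TMM), and as CPM per kb of exon where genes are compared with each other. Chd8 itself stood between 229 and 235 CPM in the Chd8+/+ libraries at E12.5 and between 161 and 167 CPM in Chd8+/-, and between 145 and 151 CPM against 95.01 to 98.6 CPM at P5, so every library matched its genotype label. Each group held 1 library with Xist at 835 to 2009 CPM and Ddx3y at 0 to 0.256 CPM, while the other 8 had Xist at most at 2.20 CPM and Ddx3y at 42.2 to 75.9 CPM, so the groups did not differ in the number of female libraries. The library of E12.5 Chd8+/- replicate 2 stood apart from the other E12.5 libraries. Its summed level of 4 thalamic markers was 52.0 CPM per kb against 28.1 to 32.0 in the other 5, that of 6 meningeal markers was 107 against 53.2 to 76.8, and that of 6 cortical neuron identity genes was 118 against 150.4 to 191. Differences that use this library are also given without it.

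In GRCm38 coordinates, Cux1 (ENSMUSG00000029705) lay at chr5:136248135-136567490 on the minus strand and Cux2 (ENSMUSG00000042589) at chr5:121856366-122050102 on the minus strand. Pou3f2 (ENSMUSG00000095139) lay at chr4:22482780-22488366 on the minus strand and Pou3f3 (ENSMUSG00000045515) at chr1:42695768-42703176 on the plus strand. Rorb (ENSMUSG00000036192) lay at chr19:18930605-19111196 on the minus strand, and Lhx2 (ENSMUSG00000000247) at chr2:38339281-38369733, Mef2c (ENSMUSG00000005583) at chr13:83504034-83667080 and Bhlhe22 (ENSMUSG00000025128) at chr3:18054174-18057517, all on the plus strand. Cux1 shared 394 exon bases with a gene that had at most 1 count in any library, Cux2 shared 414 with a gene that had 0 counts, and the other 6 shared none. Counts were made per gene, so the CASP transcript of the Cux1 locus was not separated from the CUT factor.

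RefSeq promoters (GRCm38.p6) were at hand for 7 of the 8 genes, 12 start sites in all, not for Bhlhe22. The 250 bases before the start are shown for the genes with the largest rise (Mef2c) and the largest fall (Lhx2) between stages and for Rorb, the one of the 8 with the lowest p between genotypes at P5; none of these bases lies in an exon of its gene. Capitals mark letters that match a searched motif.
Mef2c, chr13:83503784-83504033, plus strand: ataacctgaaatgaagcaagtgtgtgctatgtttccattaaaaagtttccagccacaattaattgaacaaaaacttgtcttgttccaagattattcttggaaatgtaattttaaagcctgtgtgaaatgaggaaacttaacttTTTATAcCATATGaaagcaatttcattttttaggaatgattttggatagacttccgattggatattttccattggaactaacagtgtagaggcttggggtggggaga
Lhx2, chr2:38339031-38339280, plus strand: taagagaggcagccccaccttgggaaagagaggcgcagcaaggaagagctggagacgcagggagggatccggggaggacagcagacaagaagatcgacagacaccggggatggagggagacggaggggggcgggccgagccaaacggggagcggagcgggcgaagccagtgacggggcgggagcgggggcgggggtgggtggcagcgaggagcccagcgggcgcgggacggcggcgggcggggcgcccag
Rorb, chr19:19111197-19111446, minus strand: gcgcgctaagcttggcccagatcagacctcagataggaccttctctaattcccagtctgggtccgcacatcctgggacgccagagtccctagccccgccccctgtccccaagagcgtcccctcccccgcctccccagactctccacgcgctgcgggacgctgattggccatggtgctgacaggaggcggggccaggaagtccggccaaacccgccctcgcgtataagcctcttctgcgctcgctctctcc
The Mef2c window held 33.6% G and C with 1 CpG, against 72.8% with 25 CpG in Lhx2 and 66.0% with 18 CpG in Rorb, and the median of all 32851 promoters of the table was 6 CpG. A set of 7 motifs was searched on both strands: ATCGAT (in 0.728% of all promoters), ATGCAAAT (1.60%), AGGTCA (14.02%), TAATTA (4.84%), the MEF2 motif of CTA and TAG with 4 bases between them (3.20%), CATATG (3.46%) and TATAAA (12.4%). The capitals in Mef2c are a TATAAA on the minus strand at -107 to -102 and a CATATG at -100 to -95, counted from the start site, and the Lhx2 and Rorb windows held none of the 7. The other start sites of Mef2c matched 3 of the motifs, and the inner start of Cux2 held an ATCGAT at -72 to -67 whose last base is also the first of a TATA box match at -67 to -62. These matches describe letters, not bound sites, and the gene counts do not say which start was used.

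The first question was how the 8 genes changed between a stage when deep-layer neurons are being born and a stage when all layers have formed. All 8 differed between E12.5 and P5 in both genotypes, 4 higher and 4 lower at P5 (edgeR quasi-likelihood test, adjusted p below 0.05). In the same fit 83.1% of the 19676 genes tested were called in Chd8+/+ (41.4% higher and 41.7% lower) and 82.9% in Chd8+/- (41.3% higher and 41.6% lower), so that a call here is the common case. What set the genes apart from each other was the direction and the size of the change.

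Among the CUT factors, Cux1 was at 254, 242 and 291 CPM in the 3 Chd8+/+ libraries at E12.5 and at 141, 137 and 153 CPM at P5. The Chd8+/- libraries held 231, 239 and 225 CPM at E12.5 and 148, 140.1 and 137 CPM at P5. All P5 libraries lay below all E12.5 libraries, and the log2 fold change was -0.87 (SE 0.06) in Chd8+/+ and -0.71 (SE 0.06) in Chd8+/-. Cux2, its paralog, ran the other way. It was at 50.04, 45.7 and 43.6 CPM in Chd8+/+ at E12.5 and at 109.7, 106 and 121 CPM at P5. In Chd8+/- it was at 40.9, 39.9 and 35.2 CPM at E12.5 and at 128, 115 and 114 CPM at P5. No P5 library overlapped an E12.5 library, and Cux2 rose by 1.27 on the log2 scale (SE 0.07) in Chd8+/+ and by 1.62 (SE 0.07) in Chd8+/-.

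The POU factors both fell. Pou3f3 was at 387, 362 and 394 CPM in Chd8+/+ at E12.5 and at 164, 184 and 178 CPM at P5. Chd8+/- libraries were at 398, 336 and 401 CPM at E12.5 and at 162, 168 and 163 CPM. The stages were well apart, with log2 fold changes of -1.12 (SE 0.07) and -1.20 (SE 0.07). Pou3f2 was at 93.0, 84.8 and 95.8 CPM in Chd8+/+ at E12.5 and at 52.3, 56.5 and 60.8 CPM at P5. In Chd8+/- it was at 99.2, 141 and 94.0 CPM and then at 58.2, 57.3 and 59.5 CPM. The value of 141 CPM came from replicate 2, the library described above as standing apart, and the stages did not overlap with or without it. Pou3f2 changed least of the 8 in Chd8+/+, with a log2 fold change of -0.69 (SE 0.12), against -0.93 (SE 0.12) in Chd8+/-. Without replicate 2 the Chd8+/- value was -0.73 (SE 0.06).

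Lhx2 was at 408, 399.5 and 437 CPM in Chd8+/+ at E12.5 and at 77.4, 85.8 and 83.9 CPM at P5. Its Chd8+/- values were 457, 352 and 453 CPM and then 91.1, 85.6 and 78.9 CPM. It fell more than any other of the 8, to 0.198 of its E12.5 level in Chd8+/+ and 0.203 in Chd8+/-.

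Rorb was at 9.72, 11.5 and 11.1 CPM in Chd8+/+ at E12.5 and at 42.2, 44.1 and 47.8 CPM at P5. In Chd8+/- it was at 11.1, 11.7 and 11.1 CPM and then at 53.8, 47.2 and 51.3 CPM. It rose 4.15-fold in Chd8+/+ and 4.49-fold in Chd8+/-, from the lowest level of the 8.

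Mef2c was at 34.8, 38.83 and 36.6 CPM in Chd8+/+ at E12.5 and at 1063, 1119 and 1175 CPM at P5. The corresponding Chd8+/- libraries were at 42.3, 28.9 and 37.3 CPM and then at 1257, 1122 and 1256 CPM. The rise was 30.5-fold in Chd8+/+ and 33.5-fold in Chd8+/-, the largest of the 8. Over the same interval the summed level of 10 microglial markers went from 21.9 to 25.4 CPM per kb up to 77.2 to 98.7 in Chd8+/+, and that of 8 endothelial markers from 49.7 to 50.6 up to 70.6 to 78.5; their part in the rise of Mef2c was not tested.

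Bhlhe22 was at 18.2, 25.2 and 17.8 CPM in Chd8+/+ at E12.5 and at 129, 147 and 140.1 CPM at P5. In Chd8+/- it was at 27.7, 16.6 and 25.4 CPM and then at 151, 134 and 144 CPM. It rose 6.82-fold and 6.16-fold, and its E12.5 libraries were spread more widely than those of the other risers. With E12.5 Chd8+/- replicate 2 left out, all 8 factors were still called in Chd8+/-, and the log2 fold changes were -0.69 for Cux1, 1.65 for Cux2, -1.29 for Pou3f3, -2.42 for Lhx2, 2.19 for Rorb, 4.92 for Mef2c and 2.43 for Bhlhe22.

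**Figure D1:**
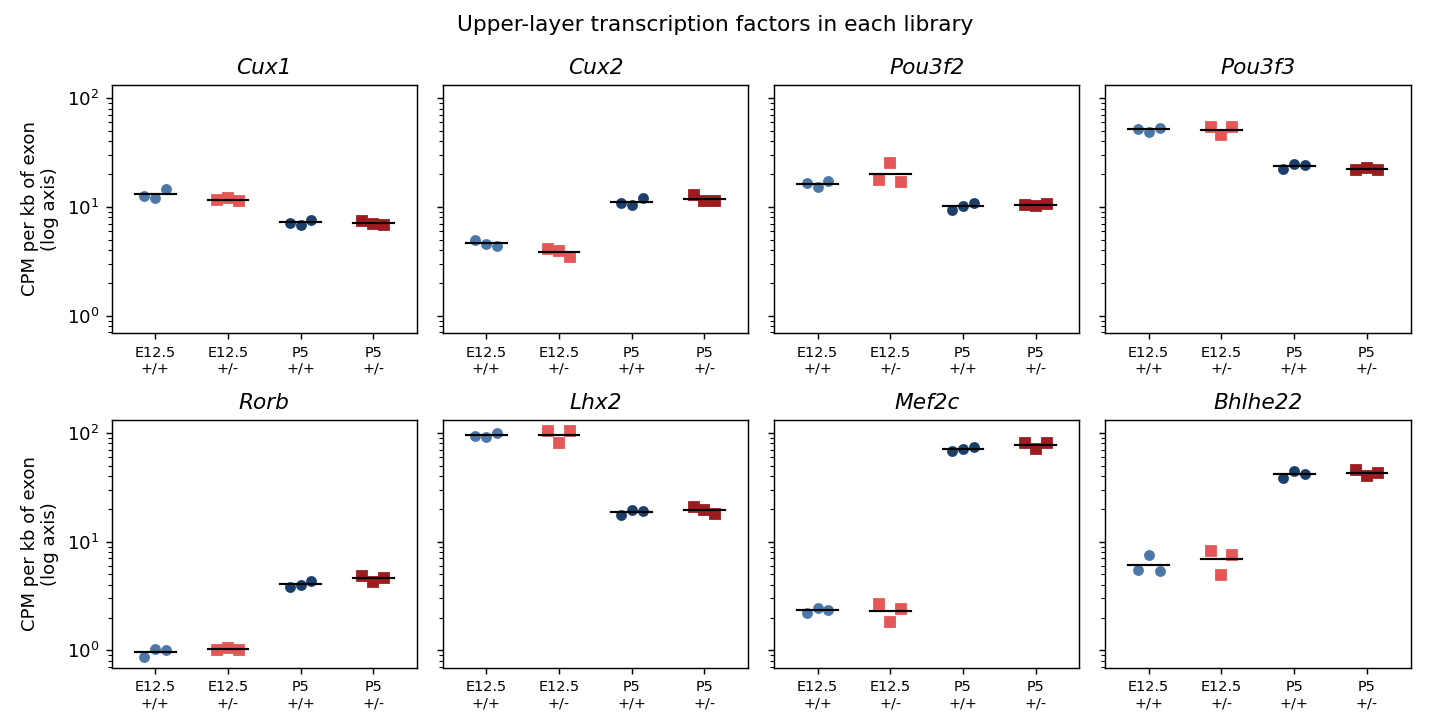
Each point is 1 library, with 3 per group, the line is the group mean, circles are Chd8+/+ and squares Chd8+/-, and the vertical axis is CPM per kb of exon on a log scale. Mef2c went from 2.34 to 71.2 CPM per kb between the Chd8+/+ groups while Lhx2 went from 94.5 to 18.7.

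Per kb of exon, the order of the 8 genes was rearranged between stages. In Chd8+/+ at E12.5 it ran from Lhx2 (94.5 ± 4.53 CPM per kb, SD, n = 3) over Pou3f3 (51.5), Pou3f2 (16.3), Cux1 (13.1), Bhlhe22 (6.10), Cux2 (4.61) and Mef2c (2.34) to Rorb (0.973), and no gene overlapped its neighbour. At P5 it ran from Mef2c (71.2 ± 3.56 CPM per kb, SD, n = 3) over Bhlhe22 (41.5), Pou3f3 (23.7), Lhx2 (18.7), Cux2 (11.1), Pou3f2 (10.1) and Cux1 (7.18) to Rorb (4.04), and only Cux2 and Pou3f2 overlapped. The Chd8+/- libraries gave the same order at each stage. Lhx2 made up 49.9% of the summed level of the 8 genes in Chd8+/+ at E12.5 and 9.99% at P5, and Mef2c went from 1.24% to 37.9%.

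The same comparison was made for 16 other upper-layer genes and 10 deep-layer factors. Of the 16, 14 rose and 2 fell in Chd8+/+. Their median change on the log2 scale was 1.95, against 0.29 for the 8 factors and -0.018 for all genes. Rasgrf2, an upper-layer signalling gene, rose by 7.79 on the log2 scale and Kcnip2, a potassium channel partner, by 5.17. Inhba, an activin subunit, had 1, 0 and 2 counts at E12.5 and 157, 152 and 170 counts at P5 in Chd8+/+. Nectin3, an adhesion molecule, and Rspo1, a secreted Wnt pathway protein, were the members that fell, with log2 fold changes of -1.56 and -4.63. Of the 10 deep-layer factors, 3 rose, 6 fell and 1 was not called, with a median of -0.34. Otx1 fell by 2.73 and Tbr1 by 0.89, while Zfpm2 rose by 0.94. Of 10 progenitor genes, 9 fell and 1 rose, with a median of -3.27.

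**Figure D2:**
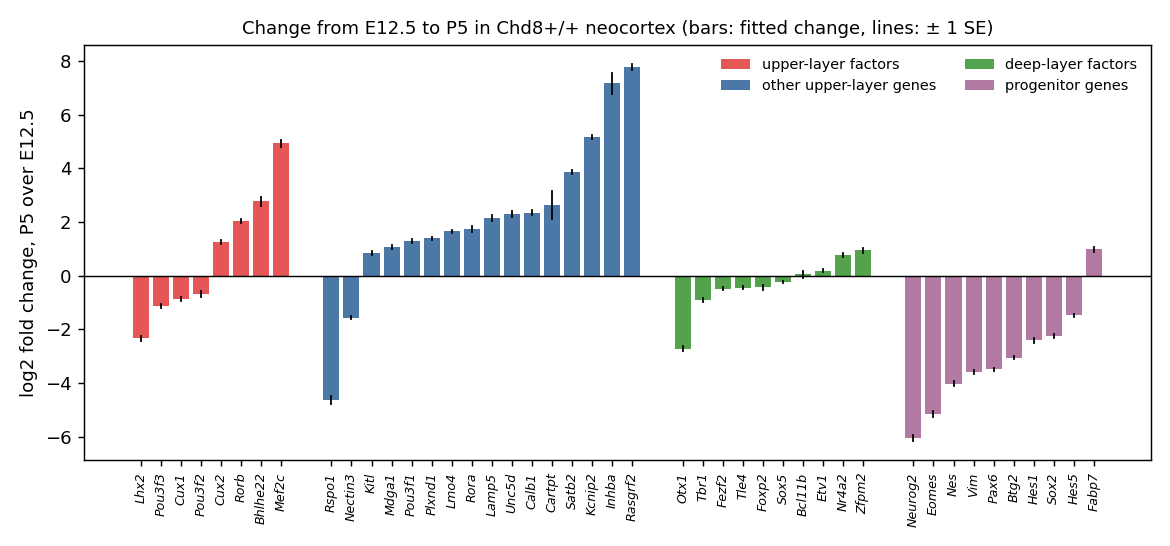
Bars give the fitted log2 fold change from E12.5 to P5 in Chd8+/+ for each gene of 4 lists and lines give 1 standard error on each side. The 8 upper-layer factors divide into 4 that fell and 4 that rose, the other upper-layer genes rose in 14 of 16 cases, and 9 of 10 progenitor genes fell.

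Other members of the same gene families also moved in both directions. Pou3f1, a POU factor of the same class, rose by 1.31 on the log2 scale in Chd8+/+ while Pou3f4 had a log2 fold change of -2.18. Rora rose by 1.74 on the same scale. Pou3f1 and Rora are also among the other upper-layer genes above, so their rises were already counted there. Mef2a and Mef2d rose by 1.29 and 1.11, much less than Mef2c, and Lhx9, which is also a thalamic marker, had a log2 fold change of -3.58. Mef2b and Bhlhe23 were too low to be tested. Bhlhe23 had 223 counts in the E12.5 Chd8+/- replicate 2 library and at most 11 in any other.

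The ratio of paralogs was taken within each library. Per kb, Cux2 stood at 0.352 of Cux1 in Chd8+/+ and at 0.331 in Chd8+/- at E12.5, and at 1.55 and 1.67 times Cux1 at P5 (geometric means). All 6 P5 libraries lay above 1 and all 6 E12.5 libraries below it. The side of 1 rests on the exon lengths, 20.024 kb for Cux1 and 10.082 kb for Cux2. In CPM, Cux2 stayed below Cux1 in every library at both stages. The change between stages does not depend on these lengths. The stages did not overlap in either genotype (two-sided exact permutation test, p = 0.1, adjusted p = 0.16 over 8 tests). A p of 0.1 is the smallest that 3 against 3 libraries allow. At P5 the genotypes did not overlap either, with ratios of 1.53 to 1.57 in Chd8+/+ and 1.63 to 1.72 in Chd8+/- (exact permutation p = 0.1, adjusted p = 0.16). Pou3f2 stood at 0.317 of Pou3f3 in Chd8+/+ at E12.5 and at 0.427 at P5, again without overlap (exact permutation p = 0.1, adjusted p = 0.16). In Chd8+/- at E12.5 the ratio ran from 0.311 to 0.557, the highest value being replicate 2, and at P5 from 0.453 to 0.484. The P5 genotypes did not overlap (exact permutation p = 0.1, adjusted p = 0.16). The other 3 of the 8 tests had overlapping groups. On the log2 scale the genotype difference at E12.5 was -0.09 for Cux2 to Cux1 (exact permutation p = 0.5, adjusted p = 0.5) and 0.28 for Pou3f2 to Pou3f3 (exact permutation p = 0.4, adjusted p = 0.457), and the stage difference of Pou3f2 to Pou3f3 in Chd8+/- was 0.29 (exact permutation p = 0.4, adjusted p = 0.457). Without E12.5 Chd8+/- replicate 2 these were -0.09, 0.02 and 0.56, and the stage difference of Cux2 to Cux1 in Chd8+/- was 2.34 against 2.33 with it. Over all single libraries left out, the genotype difference at E12.5 ran from -0.21 (without E12.5 Chd8+/+ replicate 3) to -0.016 (without E12.5 Chd8+/+ replicate 1) for Cux2 to Cux1 and from 0.015 to 0.44 (without E12.5 Chd8+/- replicate 3) for Pou3f2 to Pou3f3, and the stage difference of Pou3f2 to Pou3f3 in Chd8+/- from 0.13 (without E12.5 Chd8+/- replicate 3) to 0.56. With this number of libraries no such ratio could reach 0.05.

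**Figure D3:**
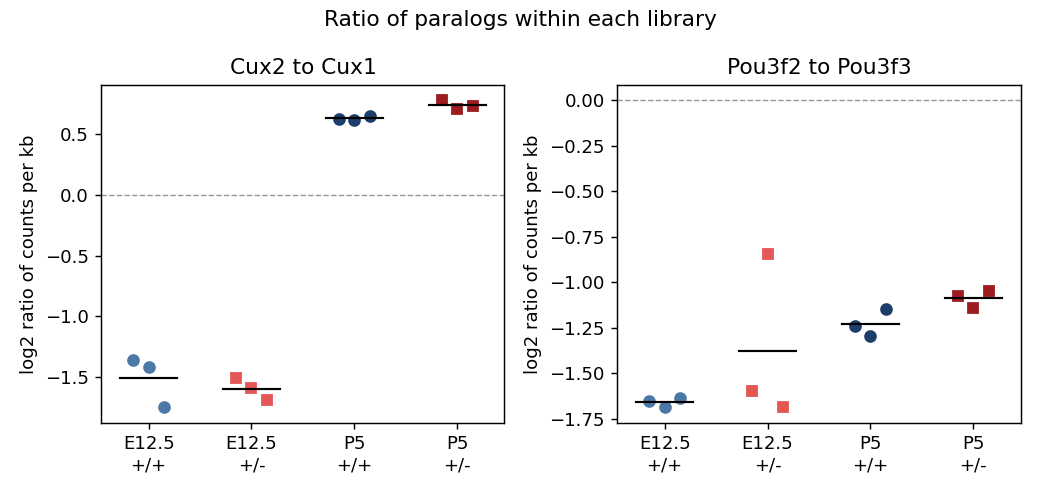
Each point is the log2 ratio of counts per kb in 1 library, lines are group means, circles are Chd8+/+ and squares Chd8+/-, and the dashed line marks equal levels. Per kb of exon, Cux2 went from below Cux1 at E12.5 to above it at P5 in both genotypes, while in CPM it stayed below in every library. Pou3f2 stayed below Pou3f3 in every library.

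The second question was whether loss of 1 Chd8 allele changed these genes. At E12.5 none of the 8 was called by edgeR's quasi-likelihood test, and Chd8 was the only one of 18081 genes called (0.00553%). At an unadjusted p below 0.05 the count was 2 of 8, against 5.15% of all genes. Cux2, whose values are given above, was lower in every Chd8+/- library than in any Chd8+/+ library, with a log2 fold change of -0.27 (SE 0.08, 95% interval -0.44 to -0.10, adjusted p = 0.942). Cux1 was also lower without overlap, with a log2 fold change of -0.18 (SE 0.07, 95% interval -0.33 to -0.03, adjusted p = 0.942). The genotypes did not overlap for these 2 of the 8 genes, against 11.4% of all genes tested. Without E12.5 Chd8+/- replicate 2 the log2 fold changes were -0.29 and -0.20. That of Cux1 was -0.10 without E12.5 Chd8+/+ replicate 3.

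Pou3f2 differed by 0.29 on the log2 scale (95% interval -0.01 to 0.59, adjusted p = 0.942), and by 0.09 without E12.5 Chd8+/- replicate 2. Bhlhe22 differed by 0.19 (95% interval -0.25 to 0.62), and by 0.38 without that library. Leaving out each of the 6 libraries in turn gave 0.04 to 0.38, the lowest without E12.5 Chd8+/- replicate 1. The log2 fold changes of Rorb (0.07), Lhx2 (0.02), Mef2c (-0.02) and Pou3f3 (-0.01) lay within their standard errors. Without replicate 2 those of Rorb, Lhx2, Mef2c and Pou3f3 were 0.05, 0.13, 0.12 and 0.07. Over all E12.5 libraries, the summed level of 8 endothelial markers was 45.02 to 47.1 CPM per kb in Chd8+/- and 49.7 to 50.6 in Chd8+/+, with all 7 of those tested lower in Chd8+/- and none of the 7 called. All 6 choroid plexus markers had fitted values above 0, none called, and their sums overlapped at 76.1 to 86.3 against 42.2 to 81.2. The part of these markers, and of the raised thalamic and meningeal markers of replicate 2, in the E12.5 values was not tested.

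At P5 none of the 8 was called either, and Chd8 was again the only gene called by edgeR, of 18666 (0.00536%). This count depended on the method: DESeq2 called 651 genes, none of them among the 8, and edgeR on all genes with at least 1 count called 995 of 31265, Rorb among them. An unadjusted p below 0.05 was seen for 2 of 8, against 17.8% of all genes. Rorb had a log2 fold change of 0.20 (SE 0.06, 95% interval 0.06 to 0.33, edgeR adjusted p = 0.152). Its adjusted p was 0.0220 with all genes of at least 1 count and 0.0528 in DESeq2, and it ran from 0.0220 to 0.438 over all alternatives. Its lowest Chd8+/- library, at 47.2 CPM, lay below the highest Chd8+/+ library, at 47.8 CPM. Mef2c differed by 0.13 (SE 0.05, 95% interval 0.01 to 0.25, adjusted p = 0.237), and its groups overlapped too. The other 6 lay between -0.08 for Pou3f3 and 0.10 for Cux2. These limits moved with single libraries: Pou3f3 was at -0.12 without P5 Chd8+/+ replicate 1 and at -0.04 without P5 Chd8+/+ replicate 2, and Cux2 was at 0.05 without P5 Chd8+/- replicate 1, 0.06 without P5 Chd8+/+ replicate 2 and 0.17 without P5 Chd8+/+ replicate 3. The genotypes overlapped for all 8 genes, while they did not for 23.4% of all genes tested. Over the 8 genes the median log2 fold change was 0.06, with 6 above 0 and 2 below, and over all genes it was 0.0017.

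Among the 16 other upper-layer genes none was called at P5, 8 were above 0 and 8 below, and the median was -0.0018. Those with the lowest p were Kitl, a ligand of the Kit receptor (log2 fold change -0.15, adjusted p = 0.233), Cartpt, a neuropeptide gene (0.33, adjusted p = 0.235), and Rasgrf2 (0.09, adjusted p = 0.253). None of the 10 deep-layer factors was called, 8 were below 0 and the median was -0.12. Bcl11b, Tle4 and Foxp2 had log2 fold changes of -0.28, -0.19 and -0.43 (adjusted p = 0.113, 0.116 and 0.117), and the genotypes did not overlap for 5 of the 10, against 23.4% of all genes, which is also the background for the marker counts given next. Bcl11b and Foxp2 are also made by striatal neurons. The summed level of 9 striatal markers was 84.9 to 107 CPM per kb in Chd8+/- and 119.6 to 131 in Chd8+/+, with all 9 lower in Chd8+/-, 8 of them without overlap, and none at 0 counts. That of 6 choroid plexus markers was 257 to 303 against 349 to 454, with all 6 lower and 5 without overlap. Endothelial markers, which bear on Mef2c, were lower in Chd8+/- for 7 of 8 genes, without overlap for 5, and summed to 69.9 to 71.9 CPM per kb against 70.6 to 78.5. Interneuron markers were lower for 8 of 9 genes and progenitor genes for 8 of 10. Of these, 3 interneuron markers and 5 progenitor genes were lower without overlap, and 1 progenitor gene, Hes5, was higher without overlap. All 4 thalamic markers had lower means in Chd8+/-, with sums of 15.8 to 16.5 CPM per kb against 16.8 to 20.8, and 5 medial pallium markers summed to 3.78 to 4.54 against 4.93 to 5.43. Microglial markers, which also bear on Mef2c, overlapped between genotypes for all 10 genes, with sums of 79.8 to 90.3 against 77.2 to 98.7. In the fit 6 were higher and 4 lower. By group means Fcrls was lower, at 17.64 CPM in Chd8+/- against 17.67. Of 6 meningeal markers 5 were higher, all with overlap, and 1, Foxc1, was lower without overlap. The 6 cortical neuron identity genes summed to 326 to 348 against 327 to 354. Of these 6, 2 were lower without overlap, Neurod6 and Neurod1. The striatal sum of 84.9 was that of P5 Chd8+/- replicate 1, against 104 and 107 in the other Chd8+/- libraries. The part of these cell types and tissues in the P5 values was not tested.

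**Figure D4:**
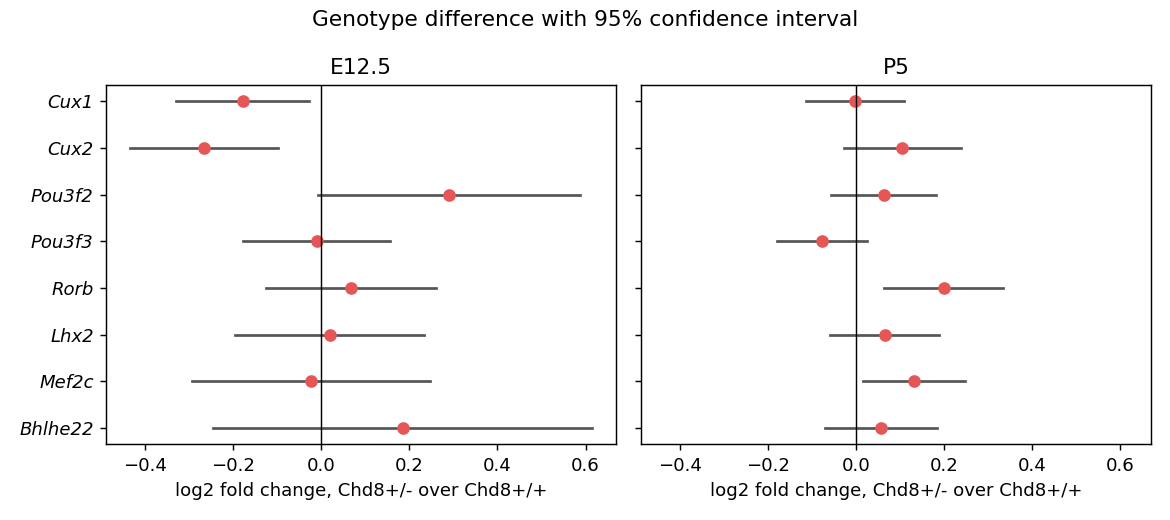
Points are the log2 fold change of Chd8+/- over Chd8+/+ from edgeR at E12.5 (left) and P5 (right), with 3 libraries per genotype and lines for the 95% confidence interval. The intervals of Cux1 and Cux2 at E12.5 and of Rorb and Mef2c at P5 do not reach 0 before adjustment for the number of genes tested.

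The change of the genotype difference between stages was tested as an interaction. None of the 19676 genes was called (0%), and an unadjusted p below 0.05 was seen for 1 of the 8 factors against 10% of all genes. That gene was Cux2, with a difference of 0.35 between the stage changes of the genotypes (SE 0.10, 95% interval 0.14 to 0.57, adjusted p = 0.362). The other 7 ran from -0.24 for Pou3f2 to 0.16 for Cux1. Without E12.5 Chd8+/- replicate 2 the interaction was 0.39 for Cux2, -0.03 for Pou3f2, 0.19 for Cux1, -0.15 for Pou3f3, 0.15 for Rorb, -0.07 for Lhx2, 0.0072 for Mef2c and -0.33 for Bhlhe22, and none was called. Over all single libraries left out, the interaction of Cux1 ran from 0.09 (without E12.5 Chd8+/+ replicate 3) to 0.23. That of Mef2c ran from 0.0072 to 0.28, that of Pou3f2 from -0.33 to -0.03 and that of Cux2 from 0.30 to 0.42.

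For each factor the gene with the most similar course was the one whose centred log2 CPM profile over the 12 libraries lay at the smallest Euclidean distance. These were Sars2 for Cux1 (distance 0.208), Sema4g for Cux2 (0.213), Parva for Pou3f2 (0.311), Spats2 for Pou3f3 (0.177), Fbxo31 for Rorb (0.270), Rcc1 for Lhx2 (0.302), Ppp2r2c for Mef2c (0.436) and Efna3 for Bhlhe22 (0.418). None of the 8 was the nearest gene of another. All genes with a symbol in the 12-library fit were candidates, and the stage changes of the 8 ran from -2.33 to 4.93 in Chd8+/+. That outcome was therefore likely beforehand and says nothing of a shared course.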

How the data were processed

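Gene counts of 12 neocortex libraries were used as deposited. Per the labels and the methods, the authors trimmed reads with Trim Galore 0.4.1, aligned them with TopHat2 2.1.0 to GRCm38 and made the raw counts per gene with featureCounts 1.5.0. The recorded P5 command counted read pairs without a strand option, so overlapping genes on opposite strands were not separated; the E12.5 command is not given in the sources used here. Sequencing runs of a library were summed. Every library held at least 38774591 counts.

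The counts were tested with edgeR 4.0.16 (R 4.3.3; TMM, default filterByExpr, quasi-likelihood F-test, Benjamini-Hochberg adjustment over all genes tested, threshold 0.05), within stage for genotype and over all 12 libraries for stage and interaction. Paralog ratios were compared with exact permutation tests (scipy 1.17.1). Alternatives were other scalings, no filter, DESeq2 1.42.0, limma 3.58.1 (voom), gene-length offsets, a replicate block, 1 fit of all libraries, an adjusted p of 0.1 and leaving out each library.

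The 8 genes, the lists, the tests and the alternatives were chosen with earlier results of these data known. The genes named were the 8, Chd8, their family members (1 is not reported here), the 3 genes of the upper-layer and deep-layer lists with the lowest p at P5 and the 3 with the largest stage change, and each factor's nearest profile; Nectin3, Rspo1 and the library value of Bhlhe23 were singled out after their values were seen.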

Additional observations from a re-analysis of the deposited data

How the results depend on the processing

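The 4 rises and 4 falls between stages kept their direction and their call under every alternative run and with each library left out. Gene-length offsets moved the median of all genes to -0.24 in Chd8+/+ and -0.20 in Chd8+/-, from -0.02 and -0.0046. No factor was called between genotypes in any alternative except Rorb at P5: with all genes of at least 1 count tested, 1 of the 8 was called (Rorb, log2 fold change 0.20, adjusted p = 0.0220), beside 995 of 31265 genes. Its adjusted p ran from 0.0220 to 0.438 over the alternatives and was 0.0528 in DESeq2.

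DESeq2 called 3 genes at E12.5, 651 at P5 and 8 in the interaction, none of them among the 8 factors, where edgeR called 1, 1 and 0. That run left out genes at 0 counts. A run that kept them was added after these counts had been seen and set beside other counts for this series; it called 3, 653 and 8 genes, again none of the 8 factors.

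The genotype difference of Cux1 at P5 changed sign to 0.0023 with total counts alone, to 0.092 with gene-length offsets and to 0.091 with the replicate block and these offsets. With single libraries left out it ran from -0.037 to 0.051. At E12.5 the same ranges were -0.055 to 0.071 for Pou3f3, -0.0073 to 0.12 for Rorb, -0.044 to 0.13 for Lhx2 and -0.15 to 0.12 for Mef2c, and in the interaction -0.075 to 0.11 for Lhx2 and -0.33 to 0.015 for Bhlhe22. The cause was not tested.

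Whether replicate numbers pair the libraries was not settled. Deviations of same-numbered libraries correlated at -0.16, -0.06 and -0.05 at E12.5 and at 0.19, 0.08 and 0.04 at P5. Those of differently numbered libraries correlated at -0.08 to 0.14 at E12.5 and at -0.14 to 0.07 at P5. At P5 each Chd8+/+ library correlated most with the Chd8+/- library of the same number. With the replicate block 0 of the 8 were called in either genotype test or the interaction, and over all genes 0 were called at E12.5 and 4 at P5 (10 with length offsets). With 3 libraries per group, the 95% intervals given with the values show their precision.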
